A study of Mus musculus with 13 samples.

Results

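The natriuretic peptide and cardiac stress genes were examined in heart tissue and in aortic endothelial cells (ECs) of Hmox2+/+ and Hmox2-/- mice. They are Nppa, Nppb, Acta1, Myh7, Ankrd1, Xirp2, Fhl1, Rcan1 and Ccn2, which are 9 of the 36109 genes in the processed files, and were taken by name. The list held 10 names, since Ctgf is the earlier symbol of Ccn2. Estimated counts and TPM were summed per gene over the 40 listed transcripts of these genes.

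RNA came from heart, with 4 Hmox2+/+ libraries (WT 1 to WT 4) and 3 Hmox2-/- libraries (KO 1 to KO 3). It also came from aortic ECs, with 3 libraries of each genotype. The study describes 1 fewer Hmox2+/+ heart than the labels list, and all 4 labelled libraries were used here. Hmox2 encodes heme oxygenase 2, a constitutive enzyme that breaks down heme and takes part in oxygen sensing in the carotid body. The knockout carries the deletion in every tissue, the wild-type mice were littermates according to the methods, and all mice breathed room air. The mice used for sequencing were young according to the study, and their sex is not given in the sources used here. According to the methods, hearts were frozen and pulverized whole, and EC RNA was taken up directly in lysis reagent.

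A heart under load re-expresses part of its fetal program. Stretched cardiomyocytes secrete atrial and B-type natriuretic peptide (from Nppa and Nppb), which act through guanylyl cyclase receptors to lower blood volume and pressure. In the mouse the same state classically raises skeletal α-actin (Acta1) and β-myosin heavy chain (Myh7) beside the adult cardiac forms Actc1 and Myh6. Ankrd1, Xirp2 and Fhl1 encode proteins of the sarcomere and its attachments that respond to stretch, Rcan1 is a target and inhibitor of calcineurin, and Ccn2 is a matricellular protein induced by TGF-β and YAP.

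In heart tissue these genes did not move as a group. Nppb, Rcan1 and Fhl1 were higher in Hmox2-/- mice, whereas Nppa, Acta1, Myh7, Xirp2 and Ccn2 were lower, and Ankrd1 did not pass the test. All 9 genes were tested with edgeR's quasi-likelihood test, and 8 were called at an adjusted p (Benjamini-Hochberg) no larger than 0.05, against 33.4% of the 13816 genes tested. Of the members, 5 were lower (16.2% of genes tested) and 3 were higher (17.2% of genes tested). Nppa, Nppb and Acta1 also changed by at least 1 on the log2 scale, which 6.71% of genes tested did. The hearts of the genotypes did not overlap for 8 members, and for 40.4% of genes tested. The median log2 fold change of the members was -0.51, beside -0.01 for all genes tested.

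**Figure D1:**
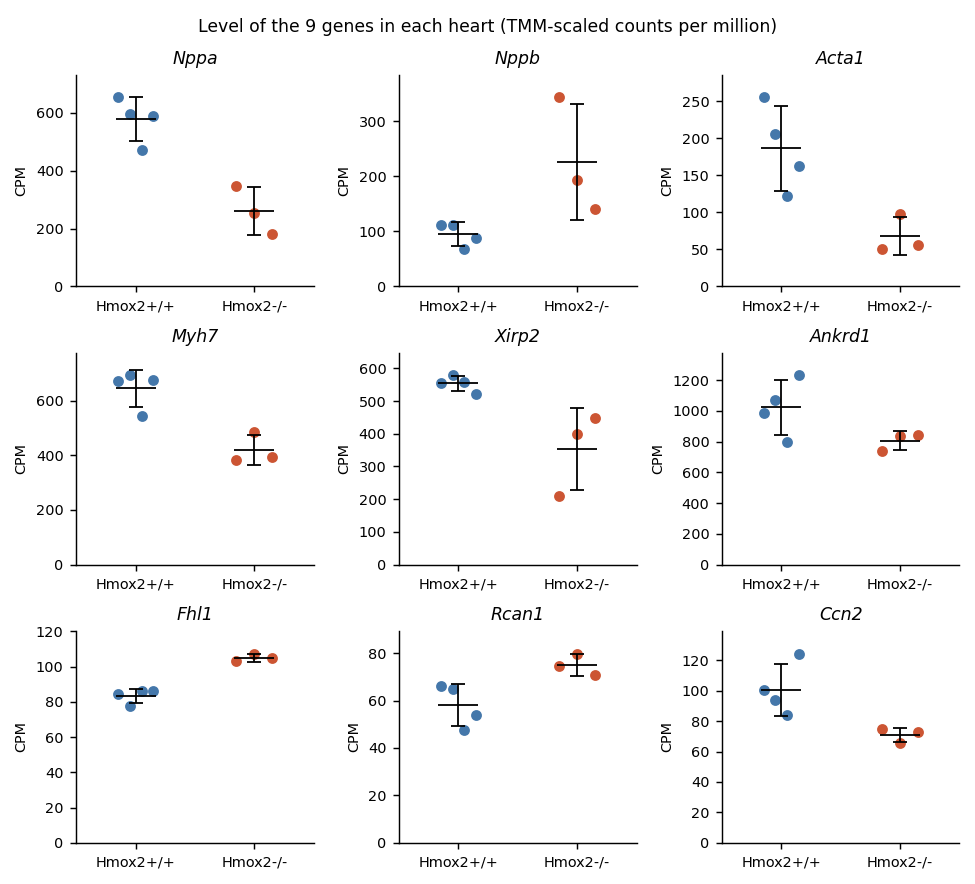
Level of each gene in every heart, in TMM-scaled CPM (counts relative to library size, linear axes from 0). Points are libraries, in order of replicate number within a genotype, and bars are mean ± SD (n = 4 Hmox2+/+ and n = 3 Hmox2-/-). Only Ankrd1 has hearts of both genotypes in the same range.

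Promoter sequences are shown for the peptide genes, which moved in opposite directions, for Acta1, the member with the largest decrease, and for Rcan1, whose 2 starts give different isoforms. Each line runs 5′ to 3′ from 250 bases before to 50 bases after the start, from RefSeq on GRCm38.p6. Capitals mark matches on either strand to 7 motifs: MCAT (CATTCC, bound by TEAD factors), GATA (GATAA), NKX2-5 (AAGTG), AP-1 (TGANTCA), the TATA box (TATAAA), the CArG box (bound by serum response factor) and the MEF2 box.

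Nppa (chr4:148000472-148000771, plus strand): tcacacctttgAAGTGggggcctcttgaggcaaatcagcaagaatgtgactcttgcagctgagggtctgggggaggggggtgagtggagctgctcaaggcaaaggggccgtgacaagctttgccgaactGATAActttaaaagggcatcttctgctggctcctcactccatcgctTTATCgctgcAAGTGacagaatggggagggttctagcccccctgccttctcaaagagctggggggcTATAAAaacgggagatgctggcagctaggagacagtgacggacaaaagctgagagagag
Nppb (chr4:147985650-147985949, plus strand): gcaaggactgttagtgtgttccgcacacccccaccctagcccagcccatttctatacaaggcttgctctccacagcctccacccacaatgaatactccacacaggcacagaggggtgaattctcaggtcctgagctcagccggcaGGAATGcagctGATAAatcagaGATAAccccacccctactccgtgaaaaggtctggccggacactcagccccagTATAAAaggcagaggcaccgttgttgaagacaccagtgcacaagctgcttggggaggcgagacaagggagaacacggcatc
Acta1 (chr8:123894726-123895025, minus strand): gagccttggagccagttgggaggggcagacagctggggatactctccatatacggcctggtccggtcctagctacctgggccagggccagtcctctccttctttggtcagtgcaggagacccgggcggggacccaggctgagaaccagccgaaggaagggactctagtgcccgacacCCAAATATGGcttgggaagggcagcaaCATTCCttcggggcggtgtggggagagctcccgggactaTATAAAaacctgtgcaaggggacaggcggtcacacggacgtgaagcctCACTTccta
Rcan1 upstream start (chr16:92466120-92466419, minus strand): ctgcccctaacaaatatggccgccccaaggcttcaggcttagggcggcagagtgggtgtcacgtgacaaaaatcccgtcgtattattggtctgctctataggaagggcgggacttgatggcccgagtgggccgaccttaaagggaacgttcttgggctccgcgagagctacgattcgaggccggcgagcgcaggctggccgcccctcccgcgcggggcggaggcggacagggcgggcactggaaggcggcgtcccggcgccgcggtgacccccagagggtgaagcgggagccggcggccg
Rcan1 downstream start (chr16:92400029-92400328, minus strand): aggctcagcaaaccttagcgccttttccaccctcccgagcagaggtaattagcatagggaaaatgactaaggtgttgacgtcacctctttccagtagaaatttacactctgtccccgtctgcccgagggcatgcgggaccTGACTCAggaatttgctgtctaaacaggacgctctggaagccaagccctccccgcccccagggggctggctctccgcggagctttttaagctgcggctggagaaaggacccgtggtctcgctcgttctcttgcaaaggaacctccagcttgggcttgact

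Nppa and Nppb lie in the same orientation on chromosome 4 (GRCm39; Nppb 148069859 to 148071662, Nppa 148085091 to 148086583). The end of Nppb is 13428 bases from the start of Nppa, with 0 protein-coding genes annotated wholly between them. Both promoters hold 2 GATA matches and a TATA match. Shares given here are of promoters with at least 1 match: 25.4% for GATA and 13.6% for TATA among the 32851 RefSeq promoters. Nppb alone of the pair holds an MCAT match (14.7% of promoters), at bases -105 to -100, and Nppa alone holds NKX2-5 matches (46.4%). Acta1 has a CArG box (1.63%), an MCAT, a TATA and an NKX2-5 match. The downstream start of Rcan1 has an AP-1 match (7.81%) and the upstream start has no match in this window. Of the members not printed, Xirp2 holds an AP-1 and a MEF2 match (3.19% of promoters for MEF2), Ankrd1 holds 2 MCAT matches and Fhl1 holds a CArG box, among other matches.

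Nppa, the atrial natriuretic peptide gene, was at 654, 595, 472 and 588 CPM in the Hmox2+/+ hearts and at 347, 253 and 180 CPM in the Hmox2-/- hearts. Every Hmox2-/- heart was below every Hmox2+/+ heart. The mean fell from 577 ± 76.2 CPM (SD, n = 4) to 260 ± 83.6 CPM (SD, n = 3), a log2 fold change of -1.15 (SE 0.19, 95% interval -1.58 to -0.73, adjusted p = 0.00192). In bulk tissue, fewer cells of a type and less RNA per cell cannot be told apart. With all 13 libraries in 1 fit the log2 fold change was also -1.15, but with an adjusted p of 0.0829.

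Nppb, the B-type natriuretic peptide gene, went the other way. It was at 112, 112, 67.1 and 87.0 CPM in Hmox2+/+ hearts and at 344, 194 and 140 CPM in Hmox2-/- hearts. Every Hmox2-/- heart was above every Hmox2+/+ heart, and KO 1 was well above KO 2 and KO 3. Fitted by edgeR, Nppb rose by 1.26 on the log2 scale (SE 0.26, 95% interval 0.68 to 1.84, adjusted p = 0.00519). Its adjusted p stayed past the threshold in each alternative that was run (0.67 to 1.52). The rise was under 1 with an offset for transcript length and GC content (0.72) and with that offset and the replicate number as a block (0.67).

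Taken as a ratio within each heart, which does not depend on scaling between libraries, Nppb per Nppa in TPM was 0.185 ± 0.024 (SD, n = 4) in Hmox2+/+ hearts and 0.964 ± 0.144 (SD, n = 3) in Hmox2-/- hearts. The lowest Hmox2-/- ratio was 0.875 and the highest Hmox2+/+ ratio was 0.214, so the genotypes were far apart. On the log2 scale the ratio differed by 2.38 (two-sided exact permutation test, p = 0.0571, adjusted p = 0.114 over 4 ratios). That is the smallest p 4 against 3 libraries can give by this test, so no ratio could pass the threshold. Within each genotype the hearts with more Nppa tended to have more Nppb, with KO 1 highest and KO 3 lowest in both genes.

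**Figure D2:**
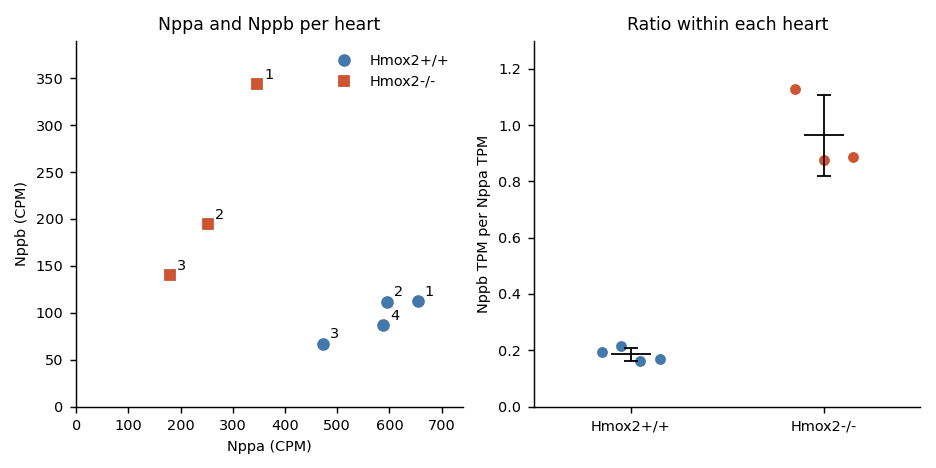
Left, Nppb against Nppa in CPM in each heart, with replicate numbers beside the points. Right, Nppb TPM per Nppa TPM in each heart with mean ± SD. Hmox2+/+ hearts lie low and to the right, and the 3 Hmox2-/- ratios, from 0.875 to 1.13, lie above all 4 Hmox2+/+ ratios.

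Nppa is an atrial gene in the healthy adult, so atrial markers were set beside it. Some were near 0 in hearts that the methods describe as whole, and others were not. Myl7, the atrial light chain, was at 0.892, 1.42, 0.495 and 0.885 CPM in Hmox2+/+ hearts and at 4.11, 4.08 and 13.2 CPM in Hmox2-/- hearts, where it was higher (log2 fold change 2.92, adjusted p = 0.0015). Sln was under 0.3 CPM in all hearts but KO 3 (2.48 CPM), and Bmp10 was at or near 0. Kcnj3, a potassium channel subunit on the same list, was at 78.2 to 92.6 CPM in Hmox2+/+ hearts and at 69.9 to 87.0 CPM in Hmox2-/- hearts (log2 fold change -0.15, adjusted p = 0.283). Myl4, a further atrial light chain, was at 0.744 to 1.52 CPM in Hmox2+/+ hearts and at 1.5 to 13.2 CPM in Hmox2-/- hearts. Over the 11 atrial markers the summed level was 600.0 to 669 CPM in Hmox2+/+ hearts and 754 to 907 CPM in Hmox2-/- hearts. Pam alone held 469 to 543 CPM and 629 to 747 CPM of it, so the sum does not measure how much atrial tissue a library held. Of the 9 tested, 5 were higher and 2 were lower, where 33.4% of all genes tested were called. With an offset for transcript length and GC content 3 were higher and 2 were lower. Their part in the Nppa and Nppb results was not tested.

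The enzymes and receptors around the peptides moved in both directions. Of 14 genes tested on a list of 16, 1 was higher (Npr3) and 4 were lower (Prkg1, Corin, Npr2 and Pde3a) in Hmox2-/- hearts, with a list median of -0.36. This share is near the 33.4% of all genes tested that were called. With the length and GC offset 3 were higher and 3 were lower (median -0.05), where 3516 of 13816 genes tested were called. Corin, the protease that activates the atrial peptide, was lower (log2 fold change -0.58, adjusted p = 0.00396). It was at 228 to 271 CPM in Hmox2+/+ hearts and at 146 to 193 CPM in Hmox2-/- hearts, without overlap. Npr3, the clearance receptor, was higher (0.55, adjusted p = 0.00249), and Npr2, the receptor of C-type natriuretic peptide, was lower (-0.48, adjusted p = 0.00918). Npr1, the guanylyl cyclase receptor shared by both cardiac peptides, had a log2 fold change of 0.22 (adjusted p = 0.149), and Furin, which cleaves the B-type precursor, of -0.07 (adjusted p = 0.677). Prkg1, the kinase activated by cGMP, had the largest decrease of the list (-1.27, adjusted p = 6.54e-04). Nppc was at most a trace and was not tested.

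Acta1 and Myh7 are the fetal partners of Actc1 and Myh6. Acta1 was at 255, 205.8, 121 and 162 CPM in Hmox2+/+ hearts and at 50.9, 98.2 and 55.7 CPM in Hmox2-/- hearts. The genotypes did not overlap, although WT 3 and KO 2 came close. Acta1 fell by 1.44 on the log2 scale (SE 0.27, adjusted p = 0.00315). The call held in each alternative that was run (-1.80 to -1.26). Actc1, the adult cardiac α-actin, differed by 0.11 (adjusted p = 0.438). Acta1 made up 2.12% ± 0.434 (SD, n = 4) of the TPM of the pair in Hmox2+/+ hearts and 0.726% ± 0.247 (SD, n = 3) in Hmox2-/- hearts, with no overlap (exact permutation p = 0.0571, adjusted p = 0.114).

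Myh7 was at 672, 693, 545 and 675 CPM in Hmox2+/+ hearts and at 382, 485 and 394 CPM in Hmox2-/- hearts, again without overlap. The decrease of 0.62 on the log2 scale passed the test (log2 fold change -0.62, SE 0.12, adjusted p = 0.004), but this sum joins transcripts that behaved differently. Myh7-206, an annotated retained-intron fragment of 595 bases, shares 58.8% of its 31-base words with Myh6 and had most of the TPM of Myh7. It was at 595, 743, 492 and 558 TPM in Hmox2+/+ hearts and at 626, 820 and 635 TPM in Hmox2-/- hearts (log2 fold change -0.04, adjusted p = 0.91 at the transcript level). Myh7-201, which encodes the full protein, was at 53.9, 53.0, 29.6 and 52.0 TPM and at 24.0, 30.0 and 33.2 TPM, with a log2 fold change of -0.96 (adjusted p = 0.0336). Only WT 3 lay within the range of the Hmox2-/- hearts. Myh7-208 was at 14 to 72 counts in Hmox2+/+ hearts and at 0 counts in all 3 Hmox2-/- hearts, at least 23.3-fold lower against a floor of 3 counts per library. It passed the filter through the Hmox2+/+ hearts. The bound covers counting error only, not the estimated division of reads among overlapping Myh7 transcripts.

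Without Myh7-206 the log2 fold change of Myh7 in heart was -1.19, and with counts derived from length-scaled TPM, which weight short transcripts more, it was -0.19 (adjusted p = 0.28). The Myh7 share of the Myh6 and Myh7 TPM was 17.0% ± 0.239 (SD, n = 4) in Hmox2+/+ hearts and 18.4% ± 2.69 (SD, n = 3) in Hmox2-/- hearts with that fragment (exact permutation p = 0.286, adjusted p = 0.381). Without it the share was 2.11% ± 0.229 and 1.01% ± 0.0299, with no overlap (exact permutation p = 0.0571, adjusted p = 0.0762). Myh6 had a log2 fold change of -0.37 (adjusted p = 0.0755). How the counts of the fragment divide between both genes is uncertain.

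Among the 27 member transcripts tested in heart, 5 were called, all lower (6.1% of 31575 transcripts tested were called). They are Nppa-201 (log2 fold change -1.10, adjusted p = 0.0377) and 4 of Myh7. Acta1-201 (-1.39, adjusted p = 0.0506), Nppb-201 (1.31, adjusted p = 0.0561) and Fhl1-204 (1.87, adjusted p = 0.0501) did not pass. With the replicate number as a block, 0 were called at the adjusted level by edgeR and 12 of 31 had an unadjusted p under 0.05.

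Of the 21 partners in the sarcomere and in metabolism, 9 were higher and 2 were lower in Hmox2-/- hearts. Their median log2 fold change was 0.28, and 33.4% of all genes tested were called. With the length and GC offset 4 were higher and 3 were lower (median -0.02). The ventricular light chain Myl2 (0.64, adjusted p = 0.00468) and the smooth muscle gene Tagln (1.17, adjusted p = 0.00151) were among those that rose. Myh7b, a further slow-type myosin gene, fell by 1.42 on the log2 scale (adjusted p = 1.64e-04), and slow skeletal troponin T, Tnnt1, fell by 0.46 (adjusted p = 0.0279).

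Xirp2, an actin-binding protein of the intercalated disc, was at 556, 578, 558 and 523 CPM in Hmox2+/+ hearts and at 210, 399 and 449 CPM in Hmox2-/- hearts. The Hmox2+/+ hearts were close together and the Hmox2-/- hearts all lay below them, KO 1 farthest. In edgeR Xirp2 fell by 0.65 on the log2 scale (SE 0.20, adjusted p = 0.0299). Transcript length moved with genotype in heart: with the genes tested split by length into 4 equal bins, the median log2 fold change was 0.37 in the bin of the shortest transcripts and -0.33 in that of the longest. Xirp2, at 11979 bases, is the longest member. With an offset for length and GC content its log2 fold change was 0.10 (adjusted p = 0.512), so that neither its direction nor its call held, and without any single Hmox2+/+ heart its adjusted p was 0.0505 to 0.0754. It did not pass without KO 2 (-0.75, adjusted p = 0.0524) or with all 13 libraries in 1 fit (adjusted p = 0.0696), and without KO 1 the decrease was smaller (-0.38, adjusted p = 0.00995). Under the length and GC offset Nppa was at -1.70 and Nppb, of similar length (865 and 781 bases), at 0.72.

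Ankrd1, a stretch-responsive ankyrin repeat protein at titin, lay between 798 CPM (WT 3) and 1231 CPM (WT 4) in Hmox2+/+ hearts, with a median of 1030.6 CPM, and was at 737, 840 and 844 CPM in Hmox2-/- hearts. WT 3 lay among the Hmox2-/- hearts. The log2 fold change was -0.34 (95% interval -0.65 to -0.04, adjusted p = 0.0773). It passed with DESeq2 (adjusted p = 0.0455), with the length and GC offset (adjusted p = 0.03) and without WT 3 (adjusted p = 0.0274).

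Fhl1, a LIM protein bound to titin, was at 84.3, 77.7, 86.3 and 86.0 CPM in Hmox2+/+ hearts and at 103, 107 and 105 CPM in Hmox2-/- hearts. The spread within each genotype was small and the genotypes did not overlap. Fhl1 rose by 0.33 on the log2 scale (SE 0.09, adjusted p = 0.0129). It did not pass without KO 2 (0.32, adjusted p = 0.06), with all 13 libraries in 1 fit (0.33, adjusted p = 0.191), with the replicate number as a block (0.35, adjusted p = 0.0507) or with that block and the offset (0.26, adjusted p = 0.0645).

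**Figure D3:**
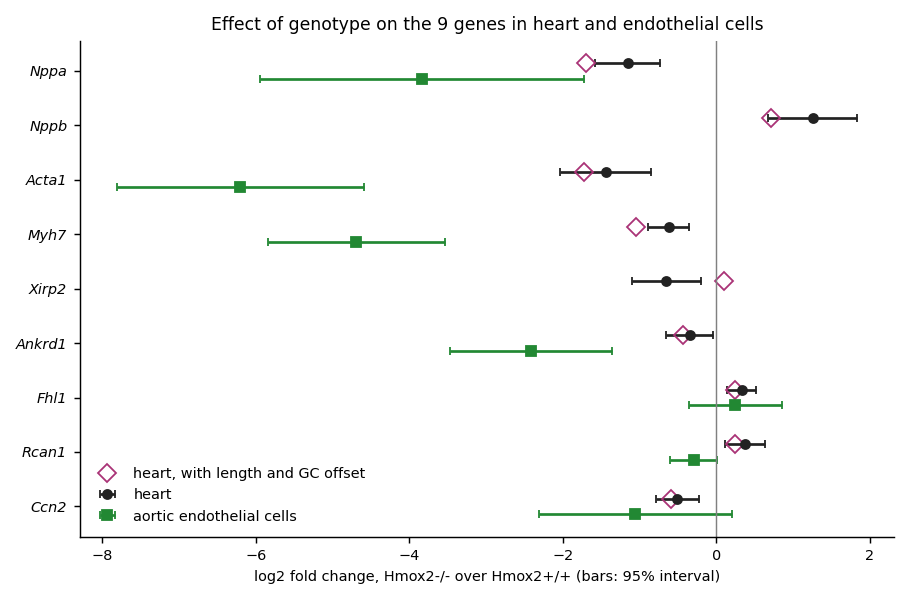
Log2 fold change of Hmox2-/- over Hmox2+/+ mice in heart (black) and aortic ECs (green), with 95% intervals from edgeR. Open diamonds give the heart value with an offset for transcript length and GC content. Nppb and Xirp2 have no EC point, since Hmox2-/- ECs held at most 3 counts. Only Xirp2 has its diamond on the other side of 0 in heart.

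Of 22 tested genes of the Z-disc, I-band and intercalated disc, 6 were higher and 5 were lower. Their median was -0.05, and 33.4% of all genes tested were called. With the length and GC offset 3 were higher and 7 were lower (median -0.07). Pdlim3, an α-actinin-binding protein, fell by 1.31 (adjusted p = 7.06e-05) and Nrap fell by 0.87 (adjusted p = 0.00115) on the log2 scale. Fhl2, a close relative of Fhl1, rose by 0.61 (adjusted p = 0.00448) and Csrp3, the muscle LIM protein, rose by 0.42 (adjusted p = 0.0124). Xirp1, the relative of Xirp2, had a log2 fold change of -0.29 (adjusted p = 0.11).

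Rcan1 was at 66.2, 64.8, 47.7 and 53.7 CPM in Hmox2+/+ hearts and at 74.7, 79.8 and 70.6 CPM in Hmox2-/- hearts. The Hmox2-/- hearts were all higher, KO 3 by little over WT 1. Rcan1 rose by 0.38 on the log2 scale (SE 0.12, adjusted p = 0.034). It did not pass with the length and GC offset (0.25, adjusted p = 0.079) or without WT 3, WT 4 or KO 2 (adjusted p = 0.0938 to 0.127). Nor did it pass with counts from length-scaled TPM (adjusted p = 0.0597), with the replicate block (adjusted p = 0.0649) or with the block and offset (adjusted p = 0.148). Rcan1 lies on chromosome 16 as Hmox2 does, 87.6 megabases away.

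The 2 starts of Rcan1, whose promoters are printed above, are 66197 bases apart in GRCm39. The downstream start gives the isoform that calcineurin and NFAT are known to induce. Its main transcript, Rcan1-201, was at 21.2, 17.1, 9.07 and 3.45 TPM in Hmox2+/+ hearts and at 15.8, 18.0 and 16.8 TPM in Hmox2-/- hearts. The Hmox2-/- values fell inside the wide Hmox2+/+ range. Rcan1-202, from the upstream start, was at 8.24, 14.4, 9.96 and 18.7 TPM and at 22.5, 24.1 and 23.4 TPM, higher in each Hmox2-/- heart (log2 fold change 0.58, adjusted p = 0.254). Transcripts from the downstream start made up 46.9% ± 23.1 (SD, n = 4) of Rcan1 TPM in Hmox2+/+ hearts and 41.2% ± 0.888 (SD, n = 3) in Hmox2-/- hearts (exact permutation p = 0.629, adjusted p = 0.629). WT 1 was at 70.8% and WT 4 at 15.6%.

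**Figure D4:**
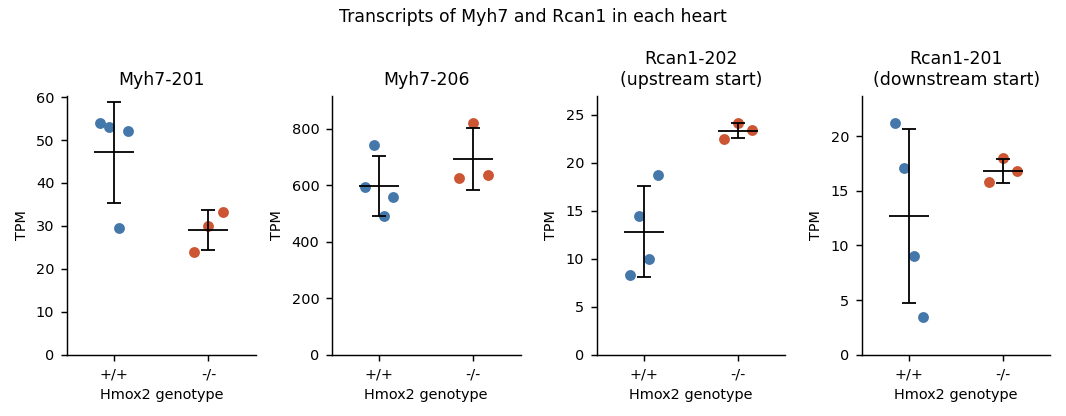
TPM of 2 transcripts of Myh7 and 2 of Rcan1 in each heart (points) with mean ± SD (bars), on linear axes from 0. Myh7-201 is lower in Hmox2-/- hearts while the short Myh7-206 is not, and Rcan1-202 is higher in each Hmox2-/- heart while Rcan1-201 lies within the Hmox2+/+ range of 3.45 to 21.2 TPM.

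Calcineurin, its regulators and the NFAT and MEF2 factors were mostly lower or not called. Of 25 tested, 13 were lower and 2 were higher, with a median of -0.35. Over all genes tested 16.2% were called lower and 17.2% higher. Nfatc2 (-1.02, adjusted p = 0.00123), Mef2a (-0.61, adjusted p = 0.00323) and the catalytic subunit Ppp3ca (-0.37, adjusted p = 0.0309) were lower. The catalytic subunit Ppp3cc (0.63, adjusted p = 9.89e-04) was higher. Rcan2, the other main cardiac member of the Rcan1 family, had a log2 fold change of -0.07 (adjusted p = 0.595). With the length and GC offset 7 were lower and 1 was higher (median -0.18).

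Ccn2 was at 100.4, 93.9, 83.9 and 124 CPM in Hmox2+/+ hearts and at 74.6, 65.6 and 72.6 CPM in Hmox2-/- hearts. No Hmox2-/- heart reached the lowest Hmox2+/+ heart. Ccn2 fell by 0.51 on the log2 scale (SE 0.13, adjusted p = 0.0129). It did not pass without KO 2 (-0.45, adjusted p = 0.0649) or with all 13 libraries in 1 fit (adjusted p = 0.366). Among 27 genes of YAP, TEAD and matrix signalling, 12 were lower and 3 were higher (median -0.32). Over all genes tested 16.2% were called lower and 17.2% higher. With the offset 7 genes of this list were lower and 3 were higher (median -0.18). Yap1, the transcriptional coactivator itself, fell by 0.35 on the log2 scale (adjusted p = 0.0307), whereas Ccn1, the near relative of Ccn2, rose by 0.40 (adjusted p = 0.0419).

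Per length, Nppa was the most abundant member in Hmox2+/+ hearts at 773 ± 147 TPM (SD, n = 4), followed by Myh7 at 667 ± 117 TPM, most of it the short fragment, and Ankrd1 at 511 ± 110 TPM. Nppb (145 ± 43.8 TPM) and Acta1 (138 ± 48.7 TPM) came next and differed by less than their spread. Xirp2, Ccn2 and Fhl1 lay at 43.0, 41.5 and 36.5 TPM, and Rcan1 was lowest at 25.8 ± 6.14 TPM. In Hmox2-/- hearts Nppa (424 ± 112 TPM) and Nppb (419 ± 172 TPM) were at the same level within their spread (n = 3). TPM is not corrected for the share of mitochondrially encoded RNA, which differed between genotypes, so genotypes were tested on TMM-scaled counts.

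The genes nearest to Nppa over the 7 hearts were Sik1, Uqcc6, Rnf207, Sccpdh and Kcnj11, out of 4469 other genes with a mean of at least 10 TPM. Their profiles differed from that of Nppa by a root mean square of 0.27 to 0.31 in log2 CPM relative to the Hmox2+/+ mean. Acta1 ranked 52 and Myh7 ranked 57 by this measure, while Nppb ranked 4392. The measure includes the difference between genotypes, so a gene that rose ranks far from Nppa whatever its order within a genotype.

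In aortic ECs the members formed 2 groups by level. Fhl1, Rcan1 and Ccn2 were abundant, at 262, 22.6 and 264 TPM on average in Hmox2+/+ ECs. Nppa, Nppb, Myh7, Ankrd1 and Xirp2 were at 0.148% to 2.27% of their mean Hmox2+/+ heart level in Hmox2+/+ ECs, and Acta1 was at 5.09% to 22.7%. Of the 8 members tested, 5 were called, all lower in Hmox2-/- ECs (18.1% of the 15301 genes tested were called and 8.06% were called lower), and the libraries of 6 did not overlap (40.7% of genes tested). Nppb did not pass the filter on low counts. The median log2 fold change of the 8 was -3.12, beside -0.02 for all genes tested. Nppa, Acta1, Myh7 and Xirp2 passed the filter through the Hmox2+/+ libraries, since no Hmox2-/- EC library held more than 0.662 CPM of any of them. Genes kept in this way could hardly come out higher, so the count of lower members and the median rest in part on the filter.

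Nppa was at 1.03, 10.6 and 3.80 CPM in Hmox2+/+ ECs and at 0.213, 0.192 and 0.662 CPM in Hmox2-/- ECs (log2 fold change -3.84, adjusted p = 0.0291). Acta1 was at 19.3, 7.82 and 33.1 CPM and at 0.354, 0.0766 and 0.368 CPM (-6.20, adjusted p = 0.00316). Myh7 (-4.69, adjusted p = 0.00269) and Ankrd1 (-2.41, adjusted p = 0.0146) were lower as well. In each of these genes all 3 Hmox2+/+ libraries were above all 3 Hmox2-/- libraries. Of the 18 member transcripts tested in ECs, 3 were called, all lower (5.74% of EC transcripts tested were called). These too passed the filter through the Hmox2+/+ libraries, with at most 10 estimated counts in any Hmox2-/- EC library. Against the floor of 3 counts per library, Xirp2 was at least 13.4-fold lower and Nppb at least 4.28-fold lower in Hmox2-/- ECs.

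Cardiomyocyte markers moved with these members. The 12 markers summed to 168, 510 and 212 CPM in Hmox2+/+ ECs and to 14.1, 13.8 and 18.5 CPM in Hmox2-/- ECs. Of the 12, 11 were called lower, as were 8.06% of all genes tested in ECs. Markers near 0 in Hmox2-/- ECs, such as Myh6 and Csrp3, also passed the filter through the Hmox2+/+ libraries. Relative to Hmox2+/+ hearts their median level was 0.345%, 1.38% and 0.738% in Hmox2+/+ ECs and 0.0133% to 0.0395% in Hmox2-/- ECs. Nppa, Nppb and the summed Myh7 had the same order among the Hmox2+/+ EC libraries, with WT 2 highest. For Myh7 this was the order of the fragment Myh7-206 (31, 119 and 51 estimated counts). Myh7-201 had another order, at 32, 29 and 54 estimated counts, with WT 3 highest. Acta1 was highest in WT 3 and lowest in WT 2, as the 12 fast skeletal muscle markers were (144, 55.4 and 146 CPM in Hmox2+/+ ECs, 9.78 to 22.2 CPM in Hmox2-/- ECs). The part of such RNA in the EC results was not tested. Without EC WT 2 the log2 fold change of Nppa was -2.76 (adjusted p = 0.0612), and it also did not pass when any 1 of the Hmox2-/- EC libraries was left out (adjusted p = 0.0719 to 0.0889).

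**Figure D5:**
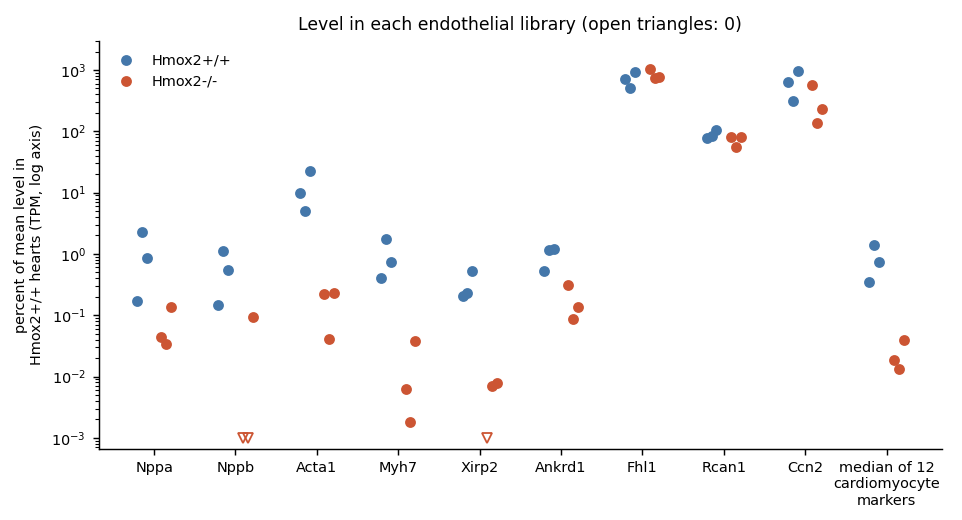
Level of each gene in each EC library as a percent of its mean TPM in Hmox2+/+ hearts (log axis), with the median of 12 cardiomyocyte markers at the right. Open triangles at the lower edge mark libraries at 0. Nppa, Nppb and Myh7 in Hmox2+/+ ECs lie near the markers, Acta1 lies above them at 5.09% to 22.7%, and Fhl1, Rcan1 and Ccn2 lie at 56.1% or more.

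Fhl1 was at 302 to 552 CPM in Hmox2+/+ ECs and at 476 to 660 CPM in Hmox2-/- ECs (log2 fold change 0.25, 95% interval -0.35 to 0.86, adjusted p = 0.517). Rcan1 was at 47.2, 38.6 and 46.0 CPM and at 38.1, 31.4 and 38.1 CPM (-0.29, 95% interval -0.60 to 0.01, adjusted p = 0.158), the opposite sign to heart. Ccn2 was at 661, 251 and 754 CPM and at 472, 137 and 192 CPM, with overlap (-1.06, 95% interval -2.31 to 0.20, adjusted p = 0.202). None of the 3 passed the test in edgeR, and the unadjusted p of each was above 0.05.

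The genotype effect was compared between tissues in 1 model with a tissue by genotype term. It passed for 7 of 9 members (28.8% of 15938 genes tested), each with the heart effect above the EC effect. The difference was 5.29 for Nppb (adjusted p = 0.00471), 2.72 for Nppa (adjusted p = 0.0313) and 0.71 for Rcan1 (adjusted p = 0.0132) on the log2 scale. Nppb did not pass the filter in ECs alone and entered this model through its heart counts. In ECs it had 4, 26 and 13 estimated counts in Hmox2+/+ and 0, 0 and 2 in Hmox2-/- libraries. For Nppb the difference is therefore poorly fixed in size, and its call rests on few EC counts. For Nppa it did not pass with the length and GC offset (1.87, adjusted p = 0.134), with the replicate block (2.60, adjusted p = 0.0634), with both (1.77, adjusted p = 0.217), or without any 1 of 6 libraries (1.66 without EC WT 2 to 2.76 without heart KO 2, adjusted p = 0.0504 to 0.0819). For Rcan1 it did not pass with the block and offset (0.54, adjusted p = 0.0744). In the main model it did not pass for Fhl1 (0.12, 95% interval -0.45 to 0.68) or Ccn2 (0.59, 95% interval -0.60 to 1.78).

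Several facts of the libraries touch these results. Total estimated counts were 7268626 in WT 1 of heart and 26067147 to 31619776 in the other 12 libraries. Hmox2 fell to 20.3% of the Hmox2+/+ level in heart and 19.7% in ECs. Mitochondrially encoded genes held 37.6% to 44.3% of counts in hearts of Hmox2+/+ mice and 22.6% to 27.2% in those of Hmox2-/- mice. Of 16 clock genes 11 were lower and 3 were higher in Hmox2-/- hearts (median -0.96), where 33.4% of all genes tested were called. The time of day of collection is not given in the sources used here. Cardiomyocyte markers summed to 58004 to 62955 CPM in Hmox2+/+ and 59906 to 64935 CPM in Hmox2-/- hearts, and macrophage markers to 73.8 to 107 CPM and 103 to 171 CPM. Endothelial markers in ECs summed to 3015 to 4393 CPM in Hmox2+/+ and 5330 to 6576 CPM in Hmox2-/- libraries, beside smooth muscle markers at 3288 to 6428 CPM and 1060 to 3632 CPM. Brown adipocyte markers summed to 7227 to 11367 CPM in Hmox2+/+ and 6871 to 7672 CPM in Hmox2-/- ECs, above the endothelial sum in each library. Fabp4 alone held 3769 to 6123 CPM and 2965 to 3553 CPM of it, and Ucp1 1370 to 2462 CPM and 1340 to 2712 CPM. In hearts Fabp4 was at 192 to 327 CPM while Ucp1 was at most 0.142 CPM. The sum therefore does not measure how much adipose tissue an EC library held. Fibroblast markers in ECs summed to 2337 to 4397 CPM in Hmox2+/+ and 5733 to 6614 CPM in Hmox2-/- libraries. The Y-linked gene Ddx3y was at 37.0 to 86.5 CPM in all hearts and 61.7 to 86.4 CPM in 4 EC libraries, but near 1 CPM in EC KO 2 and KO 3, so that sex and genotype were not balanced in ECs. The part of these differences in the members' results was not tested.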

How the data were processed

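Total RNA was selected with oligo-dT and sequenced as paired reads. The authors pseudoaligned each library with Kallisto 0.44.0 at default parameters, and the deposited files list estimated counts and TPM per transcript, with no normalization between libraries. The methods name GENCODE M32. The submitters' notes list GRCh38.p13 and mm10, whose role is not given. Of 118489 listed transcripts 97.2% were matched to GENCODE M39 by stable identifier without version. Values were summed per gene and estimated counts were rounded. The remaining transcripts held 0.755% to 1.01% of counts and were not used.

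Genes kept by filterByExpr (minimum count 10) were TMM-normalized and tested with edgeR 4.0.16 (quasi-likelihood, R 4.3.3) within each tissue, and across tissues with a tissue by genotype term. CPM are counts relative to the TMM-scaled library size. The threshold for a call was 0.05 on the p-value after Benjamini-Hochberg adjustment. The biological coefficient of variation was 0.149 in heart and 0.241 in ECs. The 4 within-heart ratios were compared by exact permutation (scipy), with a two-sided p of 2 times the smaller tail. Likeness to Nppa used log2(CPM + 0.5). Folds against a group with at most 3 counts per library are bounds, which cover counting error only. Scripts were tested on simulated data. Labels number the libraries within a group without naming mice, so p-values measure the spread between libraries, which were treated as independent.

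Alternatives were DESeq2 1.42.0, upper-quartile normalization, no filter, counts from length-scaled TPM, the replicate number as a block, an offset for length and GC content, no mitochondrially encoded genes, all libraries in 1 fit and leaving out each library. Added after seeing the data were Myh7 without its fragment Myh7-206, ECs with KO 1 as the only Hmox2-/- library, and list counts with the offset. Genes named from context lists are those of a fixed set and up to 5 per list with the smallest adjusted p. Members and lists were chosen with earlier results of these data known. Mef2a, Tnnt1 and the genes of the marker lists were named after their values were seen. Promoters of 8 members were in the RefSeq table, and Ccn2 was not in it.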

Additional observations from a re-analysis of the deposited data

Results flagged for a closer look

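Myh7 in Hmox2+/+ hearts was flagged because 1 heart stood apart: WT 3 was at 545 CPM, and its gap to the next heart was 0.857 of the range of the 4 hearts. Of 13 quantities looked at in this way this was the only one, and about 1 in 20 such groups is flagged by chance. Without WT 3 Myh7 kept its direction and its call.

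The genotype effect differed between heart and ECs by the interaction test for 7 members. The heart effect minus the EC effect on the log2 scale was 2.72 for Nppa, 5.29 for Nppb, 4.79 for Acta1, 4.10 for Myh7, 2.11 for Ankrd1, 5.02 for Xirp2 and 0.71 for Rcan1 (edgeR adjusted p from 6.84e-05 for Myh7 to 0.0313 for Nppa). The Nppa difference did not pass in 9 of the alternatives run, among them the length and GC offset and the replicate block (1.66 to 2.76, adjusted p = 0.0504 to 0.217). The fitted values for Nppb and Xirp2 rest on Hmox2-/- ECs with at most 3 counts per library and are no bounds. For Nppa, Nppb, Acta1, Myh7, Ankrd1 and Xirp2 cardiomyocyte or skeletal muscle markers moved in ECs in the same direction, and their part in the difference was not tested. Nppb and Rcan1 were the members whose heart and EC effects had opposite signs. The EC effect of Rcan1 did not pass the test on its own, and Nppb was not tested in ECs on its own.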

How the results depend on the processing

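Nppb and Acta1 in heart kept their direction and call in every alternative run. Xirp2 in heart reversed with the length and GC offset (0.10) and with that offset and the replicate block (0.07), each without passing. Over the single genes, 119 of 145 heart values, 119 of 129 EC values and 179 of 190 tissue by genotype values stayed on the same side of the threshold with the same direction.

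In heart, 8 members and 4618 genes were called. All 13 libraries in 1 fit gave 4 members. The replicate numbers are not stated to pair mice, and same-numbered hearts did not deviate together (correlations -0.033 to 0.077, and 0.045 to 0.182 in ECs). With the replicate block 2911 genes were called, and with the block and offset 5 members and 2037 genes, and 2602 of 4596 tissue by genotype genes. Leaving out 1 library gave 4 to 8 members and 2888 to 5686 genes in heart, the lowest without KO 2.

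In ECs, 5 members and 2766 genes were called, and 4319 genes with all libraries in 1 fit. Leaving out 1 library gave 3 to 6 members and 638 to 3596 genes, the lowest without KO 3. With KO 1 as the only Hmox2-/- library, assumed to vary like the Hmox2+/+ libraries, edgeR called 0 members (6 of 9 at an unadjusted p under 0.05) and 49 genes.

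Of the member transcripts, 5 in heart and 3 in ECs (5.74% of EC transcripts tested) were called. Without a filter 8 were called in heart. The block left 0 in heart and 0 in ECs (12 and 12 at an unadjusted p under 0.05). Leaving out 1 library left 1 to 3 in heart and 0 to 1 in ECs. The exact test of the 4 ratios has too few libraries to reach the threshold in any setting, which says nothing about their stability. With upper-quartile normalization 46.0% of the tissue by genotype calls were positive, beside 56.1%, and in ECs the fit of all libraries gave 44.6% higher, beside 55.4%. The causes of these changes were not tested.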

Other observations

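Of 17 other genes of injury and hormone signalling tested in heart, 4 were higher and 2 were lower in Hmox2-/- mice, where 33.4% of all genes tested were called. With the length and GC offset 2 were higher and 3 were lower (median -0.10). Hmox1, the inducible heme oxygenase, was at 3.79 CPM on average in Hmox2+/+ hearts and 15.8 CPM in Hmox2-/- hearts (log2 fold change 2.0, edgeR adjusted p = 8.95e-04). Ace, the angiotensin-converting enzyme, rose by 0.61 (adjusted p = 0.00722) and Lgals3, a macrophage-rich lectin, rose by 1.14 (adjusted p = 0.0136) on the log2 scale. Fos, an immediate early gene and AP-1 subunit, fell by 2.21 (adjusted p = 0.00404), from 11.3, 4.43, 4.42 and 2.48 CPM to 1.32, 1.03 and 0.987 CPM. Cilp, a matrix protein of fibroblasts, fell by 1.22 (adjusted p = 0.00682).

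In ECs 3 of 18 genes of the same list were higher and 2 were lower, where 18.1% of all genes tested in ECs were called. Il33, an endothelial alarmin (1.29, adjusted p = 0.0176), its receptor Il1rl1 (1.14, adjusted p = 0.0333) and Spp1, osteopontin (1.73, adjusted p = 0.0278), were higher. Spp1 was low in both groups, at 0.334 to 0.494 CPM in Hmox2+/+ ECs and 1.03 to 1.72 CPM in Hmox2-/- ECs. The transcription factor Myc (-1.09, adjusted p = 0.0177) and the β1-adrenergic receptor Adrb1 (-1.82, adjusted p = 0.0412) were lower. Npr1, the receptor of both cardiac peptides, was at 135, 93.7 and 159 CPM in Hmox2+/+ ECs and at 214, 236 and 208 CPM in Hmox2-/- ECs (0.76, adjusted p = 0.0371), while the clearance receptor Npr3 was lower (-1.53, adjusted p = 0.0344), the opposite sign to heart. Whether Npr3 differed between the tissues was not tested.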
